A study of Mus musculus with 6 samples.

Results

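Respiratory complex III and its electron acceptor cytochrome c were examined in mouse bone marrow macrophages on their way to becoming osteoclasts, the multinucleate cells that resorb bone. The genes are the 9 nuclear-encoded subunits Uqcrc1, Uqcrc2, Cyc1, Uqcrfs1, Uqcrb, Uqcrq, Uqcrh, Uqcr10 and Uqcr11, together with Cycs, the gene of somatic cytochrome c. They were chosen by symbol, and each of the 10 matched exactly 1 of the 26699 genes listed. The conditional knockout cells (cKO; LysmCre-Slc11a2flox/flox) carried floxed Slc11a2 alleles and Cre recombinase from the lysozyme M locus, which is active in myeloid cells. The control cells (Slc11a2flox/flox) came from litters of the same cross and carried the floxed alleles without Cre. Slc11a2 encodes DMT1, a transporter of ferrous iron and other divalent metals, and the comparison asks how its loss changes gene expression during osteoclast formation. Marrow came from mice aged 8 weeks, the cells were expanded in 10 ng/mL M-CSF, and cells of both genotypes then received 30 ng/mL M-CSF with 50 ng/mL RANKL, which drives osteoclast differentiation, for 48 hours. Each genotype had 3 libraries of polyadenylated RNA. Since the control cells had no Cre, an effect of Cre itself, or of the disrupted Lyz2 locus, and an effect of losing Slc11a2 cannot be told apart. The sources used here do not tie a library to a separate animal or dish, so the p-values cover the spread of these 6 libraries, which may be technical.

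Complex III, also called cytochrome bc1, takes electrons from reduced coenzyme Q and passes them to cytochrome c, pumping protons across the inner mitochondrial membrane by the Q cycle. Its redox centres are the hemes of cytochrome b, which is encoded by mitochondrial DNA, the heme of cytochrome c1 and the iron-sulfur cluster of the Rieske protein, so the complex depends on iron supply for both heme and cluster. Cytochrome c carries the electrons on to complex IV, and when it leaves the mitochondrion it triggers the apoptosome. Osteoclasts are rich in mitochondria, and respiratory genes are known to be induced as their precursors differentiate.

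The libraries held 49720701 to 57797282 counted reads, so that 1 read was worth 0.0173 to 0.0201 CPM before TMM scaling between libraries. CPM, the library-scaled read count, is given below after that scaling. Slc11a2 stood at 78.3, 82.8 and 87.4 CPM in cKO replicates 1 to 3, against 118.5, 109.6 and 118.3 CPM in the control libraries, which are always given in that order, a log2 fold change of -0.48 ± 0.06 (SE; edgeR quasi-likelihood adjusted p = 0.00219). Lyz2 stood at 7783 ± 96.8 CPM in cKO and 17105 ± 1577 CPM in control cells (SD, n = 3 each). Both differences lie in the direction the genotype labels give, although gene counts do not separate the floxed exons. The 6 macrophage markers summed to 6246 to 6699 CPM in cKO and 6442 to 6919 CPM in control libraries, and the 10 osteoclast markers to 8572 to 12160 CPM in cKO and 11806 to 15319 CPM in control libraries. Markers of stromal cells summed to 3107 to 5022 CPM in cKO and 3337 to 3891 CPM in control libraries.

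The promoters of the 2 members that passed the test, Uqcrfs1 and Cycs, are shown with 2 further ones that hold letters of the ETS factor GABP. Each is the stretch of 250 bases before the RefSeq start site on GRCm38.p6, read 5′ to 3′ on the gene's strand, which for these 4 genes is the minus strand. They lie at chr13:30545317-30545566 for Uqcrfs1, chr6:50566570-50566819 for Cycs, chr10:80406822-80407071 for Uqcr11 and chr4:116075071-116075320 for Uqcrh. Capitals mark TGACGTCA, the palindromic cyclic AMP response element (CRE), GCATGCGC, a short form of the NRF1 site, and CCGGAAGT, the GABP core, on either strand.
Uqcrfs1: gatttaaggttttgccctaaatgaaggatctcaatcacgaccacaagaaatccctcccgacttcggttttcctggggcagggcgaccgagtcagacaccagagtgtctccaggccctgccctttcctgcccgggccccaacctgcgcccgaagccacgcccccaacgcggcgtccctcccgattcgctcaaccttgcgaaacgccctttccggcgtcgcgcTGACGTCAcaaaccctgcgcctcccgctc
Cycs: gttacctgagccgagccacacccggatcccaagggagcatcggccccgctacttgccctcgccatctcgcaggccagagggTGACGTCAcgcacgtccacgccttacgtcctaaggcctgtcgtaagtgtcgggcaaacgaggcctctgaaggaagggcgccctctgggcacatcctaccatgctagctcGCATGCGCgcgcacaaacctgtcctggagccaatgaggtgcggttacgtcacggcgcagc
Uqcr11: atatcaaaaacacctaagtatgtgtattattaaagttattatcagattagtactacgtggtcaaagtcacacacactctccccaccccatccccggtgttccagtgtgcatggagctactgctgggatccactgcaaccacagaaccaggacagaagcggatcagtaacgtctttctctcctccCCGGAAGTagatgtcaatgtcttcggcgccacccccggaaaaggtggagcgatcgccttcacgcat
Uqcrh: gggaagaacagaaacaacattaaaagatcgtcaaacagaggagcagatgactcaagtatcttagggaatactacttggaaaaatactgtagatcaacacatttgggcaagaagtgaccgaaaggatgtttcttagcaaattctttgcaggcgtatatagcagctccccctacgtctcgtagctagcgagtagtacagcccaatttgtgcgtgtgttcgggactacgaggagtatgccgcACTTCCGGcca
RefSeq windows were matched for 6 of the 10 genes, the other two being Uqcrc1 and Uqcr10. The whole windows of 300 bases, which run 50 bases past the start, were searched on both strands. The CRE letters occurred in Uqcrfs1, 29 to 22 bases before the RefSeq start, and in Cycs, 169 to 162 bases before it. They occurred in 1.8% of all 32851 windows. By the gene coordinates used for the counts, Uqcrfs1 starts further upstream, at 30545362, so its CRE letters lie inside the gene there. The GABP core CCGGAAGT occurred in Uqcr11, 66 to 59 bases before the start, and in Uqcrh, 11 to 4 bases before it, and in 3.9% of all windows. The full palindromic NRF1 site was found in Uqcrc1 alone among the 6, against 4.6% of all windows, while the shorter GCATGCGC, which a full site with T at its open position also contains, was found in Cycs, Uqcr11 and Uqcrc1 and in 2.7% of all windows. The SP1 box GGGCGG was present in Cycs and in 35.7% of all windows, and the YY1 letters AAGATGGCG in none of the 6 and in 1.4% of all windows. NRF1 and GABP are textbook activators of nuclear respiratory genes, and CREB and NRF1 sites are known from the rat cytochrome c gene. The CRE and shorter NRF1 letters were added to the search after these windows had been read, and a match of letters is not evidence of binding.

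All 10 genes had a lower mean in cKO cells, by 11.6% to 26.0%, and 2 of them passed the test: Uqcrfs1 and Cycs fell. None was higher. Over all genes 2.42% were called in either direction. Of 16843 genes tested by edgeR, 1.06% were called lower and 1.36% higher in cKO cells. The median log2 fold change of the 10 was -0.30, from -0.43 to -0.18, while the median over all genes tested was 0.00 and 49.6% of them were negative. In 6 of the 10 every cKO library lay below every control library, as did 11.4% of all genes tested. An unadjusted p under 0.05 was found for 8 of the 10, and for 8.79% of all genes tested with a lower level in cKO cells. In these bulk samples, fewer cells of a type and less RNA per cell cannot be told apart.

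**Figure D1:**
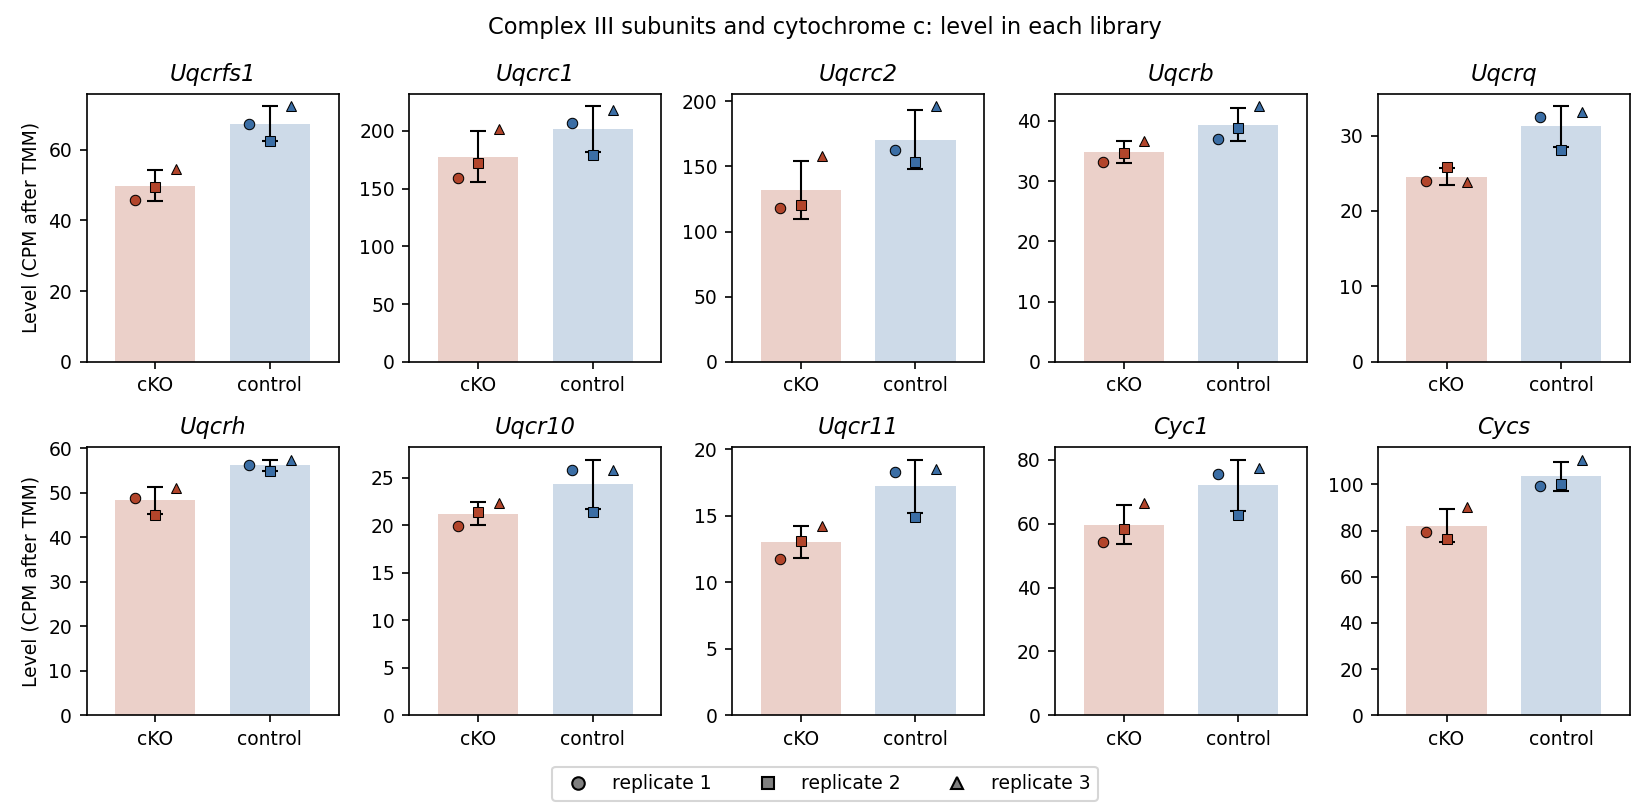
Level of each gene in CPM after TMM scaling, with cKO libraries on the left and control libraries on the right of each panel; points are libraries, bars are means and error bars are SD over 3 libraries. All cKO points lie below all control points for Uqcrfs1, Uqcrb, Uqcrq, Uqcrh, Uqcr11 and Cycs, while the groups overlap for Uqcrc1, Uqcrc2, Uqcr10 and Cyc1.

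Of the nuclear redox subunits, Uqcrfs1 passed the test and Cyc1 did not, and the difference between them was not tested. Uqcrfs1 encodes the Rieske iron-sulfur protein, whose mobile head carries electrons from coenzyme Q to cytochrome c1 (ENSMUSG00000038462, mm10 chromosome 13, 30540308 to 30545362, minus strand, 2 exons and a single annotated transcript). It stood at 45.7, 49.3 and 54.6 CPM in cKO replicates 1 to 3, against 67.3, 62.5 and 72.3 CPM in control libraries. The groups did not overlap. Its log2 fold change was -0.43 ± 0.08 (SE; edgeR quasi-likelihood adjusted p = 0.0173), and it fell by 26.0%. The call was lost without cKO replicate 1 (adjusted p = 0.134), control replicate 1 (0.0891) or control replicate 3 (0.0915), and the adjusted p ranged from 0.000152 with DESeq2 to 0.134 over all alternatives. Cyc1 encodes cytochrome c1, the heme subunit that hands electrons to cytochrome c (ENSMUSG00000022551, chromosome 15, 76343523 to 76346260, plus strand). It stood at 54.2, 58.5 and 66.3 CPM in cKO, against 75.7, 62.7 and 77.6 CPM in control libraries, and the groups overlapped in cKO replicate 3 and control replicate 2. Its log2 fold change of -0.27 ± 0.09 did not pass (adjusted p = 0.172), nor did it in any of the alternatives tried, where the adjusted p ranged from 0.0595 to 0.493.

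Cytochrome b, the remaining redox subunit, is encoded by mt-Cytb in mitochondrial DNA and is read apart from the nuclear genes. It stood at 3887, 3537 and 3880 CPM in cKO, against 3919, 3925 and 4349 CPM in control libraries. Its log2 fold change was -0.11 ± 0.07 (edgeR adjusted p = 0.462), with an approximate 95% interval of -0.25 to 0.03, and it passed in none of the alternatives. Within each library, mt-Cytb was compared with the mean of the 9 nuclear subunits as a log2 ratio of CPM. This ratio was 6.53, 6.31 and 6.30 in cKO and 6.13, 6.28 and 6.19 in control replicates 1 to 3, so every cKO value was above every control value. The log2 fold change of mt-Cytb was less negative than that of each nuclear subunit, so a positive mean difference was fixed in advance. This ratio too is a description. The means differed by 0.18 (two-sided exact permutation p = 0.10, the smallest that 3 libraries against 3 can give; 0.15 after Benjamini-Hochberg adjustment over the 3 ratios tested), and without cKO replicate 1 the difference was 0.107.

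The same kind of ratio was used to ask whether Uqcrfs1 differed more than its partners. The log2 ratio of Uqcrfs1 to the mean of the other 8 nuclear subunits was 0.13, 0.17 and 0.17 in cKO and 0.30, 0.35 and 0.32 in control replicates 1 to 3. Libraries of a genotype lay within 0.05 of each other, and the means differed by -0.17 (exact permutation p = 0.10, 0.15 after adjustment). With a library left out this difference ranged from -0.178 to -0.15. The Rieske transcript was thus lower relative to its partners in all 3 cKO libraries, in a design that cannot give a p below 0.10. Uqcrfs1 had the most negative log2 fold change of the nuclear subunits, so a negative mean difference was fixed in advance. The ratio is a description, and it was not taken for each of the other nuclear subunits.

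**Figure D2:**
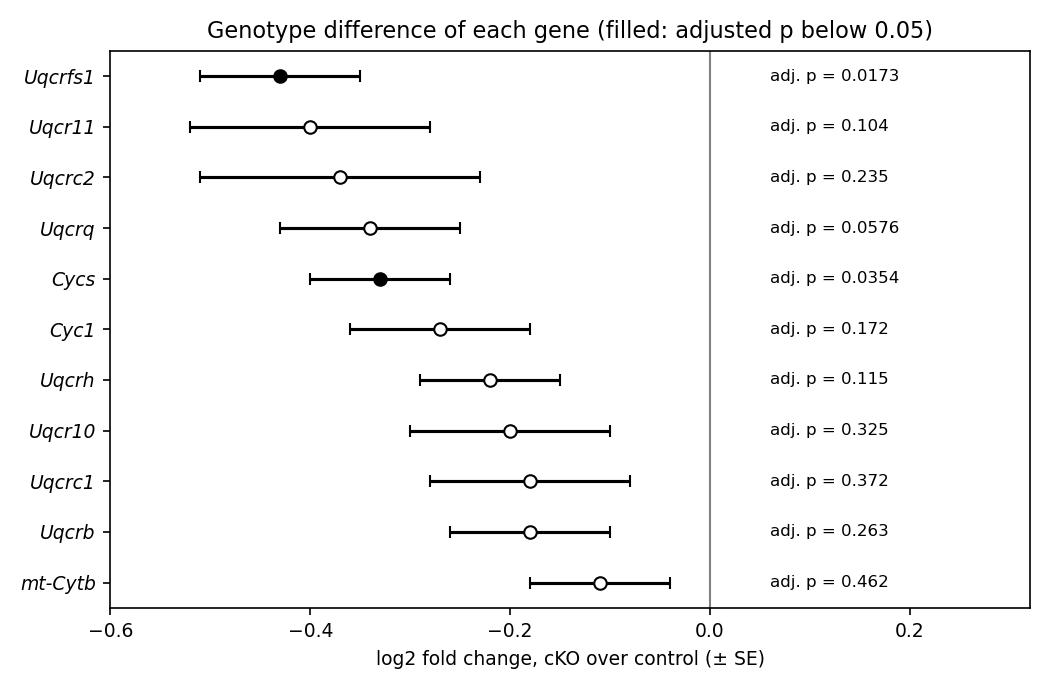
Log2 fold change of each gene, cKO over control, with its standard error on the horizontal axis; filled points have an edgeR adjusted p below 0.05. All 11 estimates are negative, from -0.43 for Uqcrfs1 to -0.11 for mt-Cytb, and the filled points are Uqcrfs1 and Cycs.

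The core proteins Uqcrc1 and Uqcrc2, which anchor the complex on the matrix side and are related to the mitochondrial processing peptidase, were the members with the most reads and did not pass. Uqcrc2 (ENSMUSG00000030884, chromosome 7, 120635176 to 120659524, plus strand) stood at 117.9, 120.7 and 157.6 CPM in cKO, against 162.3, 153.4 and 196.1 CPM in control libraries. Replicate 3 was high in both genotypes, and cKO replicate 3 lay above control replicate 2. The log2 fold change was -0.37 ± 0.14, nearly that of Uqcr11, with an adjusted p of 0.235 (edgeR). Without cKO replicate 3 it was -0.52 with an adjusted p of 0.0151, and without control replicate 3 it was -0.25 (adjusted p = 0.389). DESeq2 also called it, with an adjusted p of 0.016. Uqcrc1 (ENSMUSG00000025651, chromosome 9, 108936633 to 108949623, plus strand) stood at 158.7, 172.3 and 201.6 CPM in cKO, against 206.5, 179.2 and 218.0 CPM in control libraries. It differed by -0.18 ± 0.10 (adjusted p = 0.372), and cKO replicate 3 lay inside the control range. The processing peptidase genes Pmpca and Pmpcb, which encode the related enzyme that trims imported precursors, were at -0.19 ± 0.06 and -0.17 ± 0.07 (adjusted p = 0.108 and 0.239).

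The 5 small accessory subunits, which surround the core and bear no redox centre, differed by -0.40 to -0.18 and none passed by edgeR. Uqcr11, the member with the fewest reads, stood at 11.8, 13.1 and 14.2 CPM in cKO, against 18.3, 14.9 and 18.5 CPM in control libraries. The groups did not overlap, and the log2 fold change was -0.40 ± 0.12 (edgeR adjusted p = 0.104), while DESeq2 called it (adjusted p = 0.0491). Uqcrq, a subunit that lies against cytochrome b, stood at 24.0, 25.9 and 23.9 CPM in cKO, against 32.4, 28.1 and 33.1 CPM in control libraries. The groups did not overlap, and the log2 fold change of -0.34 ± 0.09 was just outside the threshold (adjusted p = 0.0576), and DESeq2, limma-voom and the filter at 1 CPM called it. Uqcrh encodes the hinge protein, an acidic subunit at the docking site of cytochrome c. It stood at 48.7, 44.99 and 51.1 CPM in cKO, against 56.4, 54.95 and 57.4 CPM in control libraries. The groups did not overlap, its control libraries had the smallest SD of the 10 genes, and the log2 fold change was -0.22 ± 0.07 (adjusted p = 0.115). Uqcrb, which contacts cytochrome b near a site of coenzyme Q, was at 33.2, 34.6 and 36.8 CPM in cKO, against 37.0, 38.8 and 42.4 CPM in control libraries, without overlap. Uqcr10 was at 19.9, 21.4 and 22.3 CPM in cKO, against 25.8, 21.3 and 25.8 CPM in control libraries, and control replicate 2 fell inside the cKO range. Uqcrb and Uqcr10 differed by -0.18 ± 0.08 and -0.20 ± 0.10 (adjusted p = 0.263 and 0.325).

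Cycs encodes the soluble carrier between complexes III and IV (ENSMUSG00000063694, chromosome 6, 50562563 to 50566538, minus strand). It stood at 79.5, 76.6 and 90.3 CPM in cKO, against 99.5, 100.4 and 110.8 CPM in control libraries. The groups did not overlap, and cKO replicate 3 was the library nearest to the controls. Cycs fell with a log2 fold change of -0.33 ± 0.07 (SE; edgeR adjusted p = 0.0354), and its level fell by 20.7%. Among fits with 1 library omitted, the call held without cKO replicate 3 alone (0.00994), and the adjusted p was 0.0758 to 0.218 in the other five: 0.218 and 0.0861 without cKO replicates 1 and 2, and 0.103, 0.0758 and 0.141 without control replicates 1, 2 and 3. The log2 ratio of Cycs to the 9 nuclear subunits was 0.91, 0.78 and 0.88 in cKO and 0.83, 1.0 and 0.90 in control replicates 1 to 3. These ranges overlapped, and the means differed by -0.05 (exact permutation p = 0.50, also 0.50 after adjustment).

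Several members have near-identical copies elsewhere in the genome to which reads could have been assigned. Cycs had 11 annotated genes whose transcripts match its coding sequence at 90% identity or more over at least 100 bp, and 6 of them were listed in the files. The most abundant, Gm10053, is identical over the whole coding sequence of 315 bp and averaged 8.12 CPM in cKO and 11.6 CPM in control cells (-0.51 ± 0.13, edgeR adjusted p = 0.0643). Copies held 14.5% of the reads of Cycs and its copies together, 12.6% for Uqcr11, 11.3% for Uqcrb, 11.0% for Uqcr10 and 0.06% for Uqcrh. Uqcrfs1, Uqcrc1, Uqcrc2, Uqcrq and Cyc1 had no such copy. The share for Uqcr10 came wholly from 4930481A15Rik, an antisense transcript, and Dennd5b, counted for Cycs, matched by a retained-intron transcript. When the counts of all other copies were added to their gene, Cycs was at -0.35 ± 0.07 (edgeR adjusted p = 0.0291) and Uqcrb moved to -0.22 (adjusted p = 0.147). Uqcrh also overlaps the pseudogene Gm12854 on the opposite strand by 297 bp, Uqcrb overlaps Gm10767 by 465 bp and Uqcrc2 overlaps Pdzd9 by 794 bp, with a mean of 174.7, 70.7 and 3.0 reads in those neighbours.

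Levels of different subunits were compared only per length, with the FPKM values of the authors. By FPKM, Uqcrc2 was highest in both genotypes, at 45.0 ± 7.5 in cKO and 57.7 ± 7.9 in control cells (SD, n = 3 each), and Uqcrq lowest, at 11.7 ± 0.7 and 14.7 ± 1.3. In cKO cells the order below Uqcrc2 was Uqcrc1 (37.4 ± 4.7), Uqcrb (34.6 ± 2.0), Uqcrh (33.9 ± 1.9), Uqcrfs1 (31.8 ± 3.0), Uqcr10 (31.6 ± 2.1), Cyc1 (24.1 ± 2.6), Cycs (21.0 ± 1.8) and Uqcr11 (17.7 ± 1.8). Neighbours among the first 6 overlapped in their range over libraries, as did Cyc1 and Cycs, while the steps from Uqcr10 to Cyc1, from Cycs to Uqcr11 and from Uqcr11 to Uqcrq did not overlap. In control cells Uqcrfs1 came next after Uqcrc2 (42.7 ± 3.2), followed by Uqcrc1 (42.0 ± 4.3), Uqcrh (39.3 ± 1.0), Uqcrb (38.8 ± 2.9), Uqcr10 (35.9 ± 3.9), Cyc1 (28.9 ± 3.3), Cycs (26.3 ± 1.7) and Uqcr11 (23.2 ± 2.7). There the step from Uqcrc2 to Uqcrfs1 did not overlap, nor did the same 3 lower steps. The rank of 7 of the 10 genes was the same in both genotypes, and Uqcrfs1 had rank 5 in cKO and rank 2 in control cells. The FPKM of mt-Cytb averaged 2865 in cKO and 3069 in control cells, far above all nuclear subunits.

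That order rests on the length used. The lengths implied by counts and FPKM were in a constant ratio, 1.153 to 1.154, to the union of all annotated exons of each gene, which for several members is far longer than the coding transcript. For Uqcrc1 the union is 4135 bp and the principal transcript 1653 bp; for Uqcrq the union is 1831 bp and its 2 principal transcripts 405 and 1521 bp. With FPKM rescaled to the principal transcript, the shorter one for Uqcrq, Uqcrc1 came first, at 93.5 ± 11.8 in cKO and 105.1 ± 10.7 in control cells. Uqcrq stood at 52.7 ± 3.0 in cKO and 66.5 ± 5.9 in control cells on that scale, or at 14.0 ± 0.8 and 17.7 ± 1.6 with its longer transcript. With the shorter Uqcrq transcript Cycs was lowest, at 22.9 ± 2.0 in cKO and 28.6 ± 1.9 in control cells, and with the longer one Uqcrq lay below it. With the shorter one, 3 of the 10 genes kept their rank in each genotype. The reported fit compares genotypes on counts, so these lengths do not enter it. Length does enter the alternatives that use FPKM or remove the trend of fold change over length, described below.

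The 10 genes moved together from library to library. All 10 were highest in control replicate 3, and 7 were lowest in cKO replicate 1, 2 in cKO replicate 2 and 1 in cKO replicate 3. Relative to the control mean, their mean log2 level was -0.386, -0.323 and -0.171 in cKO and 0.015, -0.123 and 0.108 in control replicates 1 to 3. The groups did not overlap on this mean, and cKO replicate 3 and control replicate 2 were nearest to each other. The 10 osteoclast markers, of which 0 were called, had mean values of -0.442, -0.576 and -0.036 in cKO and -0.070, -0.164 and 0.234 in control replicates 1 to 3 on the same scale, so that control replicate 3 was highest and cKO replicates 1 and 2 lowest in both sets. The 7 stromal markers had 0.354, 0.726 and 0.139 in cKO and 0.146, 0.078 and -0.224 in control replicates 1 to 3, and 0 were called. Of the 10 neutrophil markers, 8 were tested and 4 were higher in cKO cells, and the list summed to 263.8 to 296.0 CPM in cKO and 196.3 to 229.6 CPM in control libraries. The part of cell composition in the lower levels was not tested.

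**Figure D3:**
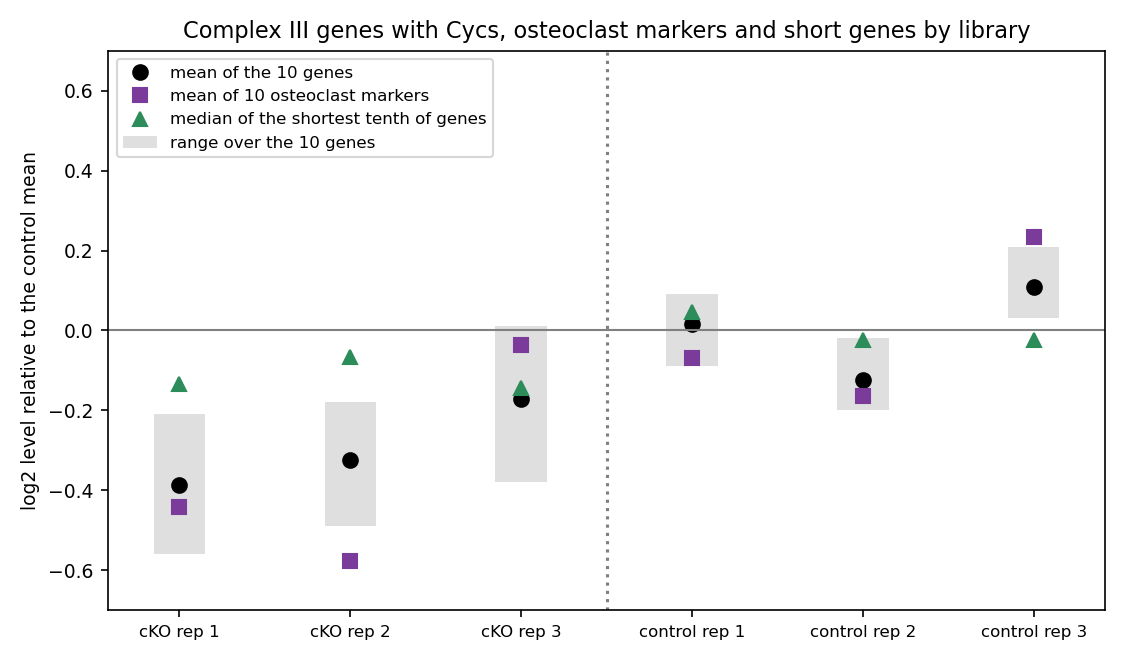
Log2 level relative to the control mean in each library, cKO libraries on the left. Circles are means of the 10 genes, with grey bars for the range over genes. Squares are means of 10 osteoclast markers, and triangles are medians of the shortest 10% of genes. The 10 genes are lowest in cKO replicate 1, at -0.386, and highest in control replicate 3, at 0.108.

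Transcript length moved with genotype as well. Among 9447 genes above 3 log2 CPM, the median log2 fold change was -0.12 in the shortest 10% and 0.05 in the longest 10% by exon length. Of the 10 members, 6 were in the shortest 10% and 9 in the shortest 30%. The length used here, and to remove the trend, follows the union of all annotated exons. For Uqcrc1 that union is 4135 bp against a principal transcript of 1653 bp, and removal by principal transcript length was not tried. The shortest 10% had a median of -0.135, -0.066 and -0.145 in cKO and 0.047, -0.025 and -0.025 in control replicates 1 to 3. With the trend over length removed from each library, all 10 genes were still negative, with a median of -0.235, but none passed: Uqcrfs1 was at -0.35 ± 0.08 (adjusted p = 0.0547) and Cycs at -0.30 ± 0.07 (adjusted p = 0.067). Uqcrb was then at -0.09 and Uqcr10 at -0.10.

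The share of all genes called lower in cKO cells, against which the members' calls under each setting can be read, was 3.24% with DESeq2, 2.1% with limma-voom, 1.02% with median-of-ratios and 0.778% with upper-quartile scaling. It was 0.73% without a filter, 1.68% with a filter at 1 CPM, 0.273% with FPKM in limma, 2.12% with the replicate block, 0.748% with the length trend removed and 1.08% with copies added. Without cKO replicates 1, 2 and 3 it was 0.116%, 0.641% and 1.79%, and without control replicates 1, 2 and 3 it was 0.149%, 0.351% and 0.213%.

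**Figure D4:**
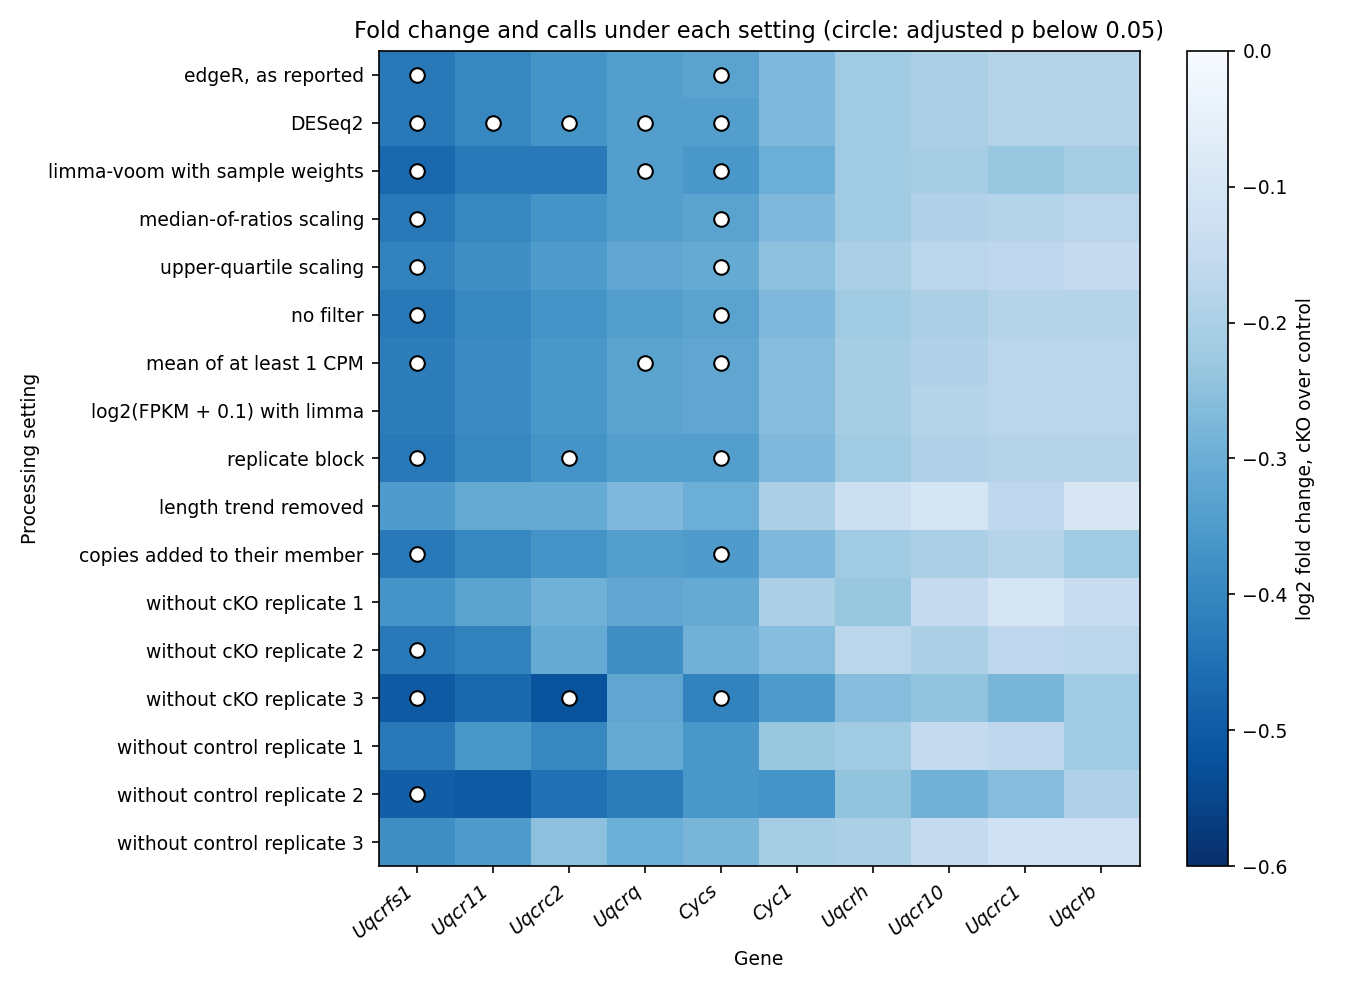
Log2 fold change of each gene (colour, cKO over control) under the reported fit and 16 other settings, with a circle where the adjusted p was below 0.05. Every cell is negative; Uqcrfs1 carries 12 circles and Cycs 10 circles, and neither is marked after removal of the length trend, with FPKM in limma, or without cKO replicate 1 or control replicates 1 or 3.

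Genes that build and serve complex III were described from lists chosen with earlier results of these data known. Of 7 assembly factors, 0 were called by edgeR and the median log2 fold change was -0.05, with 6 negative values and an unadjusted p under 0.05 for 1 of them. Uqcc1, which helps to translate and assemble cytochrome b, stood at 29.0, 28.4 and 26.9 CPM in cKO, against 32.1, 32.1 and 38.0 CPM in control libraries (-0.28 ± 0.09, adjusted p = 0.12). Bcs1l, the ATPase that inserts the Rieske protein into the complex, was at -0.23 ± 0.13 (0.386). Uqcc2, the partner of Uqcc1, was at -0.23 ± 0.15 (0.466), Ttc19, which clears Rieske fragments after assembly, at -0.00 ± 0.10 (0.99), and Lyrm7, the Rieske chaperone, at -0.05 ± 0.26 (0.952). Lyrm7 averaged 1.49 CPM in cKO and 1.54 CPM in control cells, so that only a large difference could have been detected. Hccs, the lyase that attaches heme to cytochromes c and c1, was at -0.27 ± 0.11 (0.226), and Cox7a2l, a factor that joins complexes III and IV, at -0.20 ± 0.06 (0.133). In the list of cytochrome c maturation and supercomplex factors all 4 values were negative, with a median of -0.17, and 0 were called; an unadjusted p under 0.05 was found for 2.

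Genes that make or reduce coenzyme Q, the substrate of complex III, were not called by edgeR in the reported fit. All 13 genes of its synthesis were negative with a median of -0.23, 0 were called and 6 had an unadjusted p under 0.05. Coq8a, a kinase-like protein of the pathway named after its values were seen, was at -0.32 ± 0.15 (edgeR adjusted p = 0.359) and was called in 2 of 16 alternatives, with the replicate block and without cKO replicate 3 (0.0116 at the lowest). Coq3 and Coq7, a methyltransferase and a hydroxylase of the pathway, were at -0.40 ± 0.13 and -0.38 ± 0.13 (edgeR adjusted p = 0.144 and 0.146). Of 5 measured dehydrogenases other than complexes I and II that feed electrons into coenzyme Q, 4 were negative and 0 were called. An unadjusted p under 0.05 was found for the negative Etfdh, Gpd2 and Sqor and for the positive Prodh. Prodh, the first enzyme of proline breakdown, had the largest value of the list, 0.47 ± 0.20 (edgeR adjusted p = 0.25), at 5.89, 6.09 and 5.46 CPM in cKO, against 4.90, 4.76 and 2.95 CPM in control libraries. Gpd2 and Prodh were named after their values were seen. Etfdh, which links fatty acid oxidation to coenzyme Q, stood at 55.1, 58.9 and 69.8 CPM in cKO, against 76.8, 72.7 and 83.1 CPM in control libraries (-0.34 ± 0.09, adjusted p = 0.0688). Its groups did not overlap, and it was called in 6 of 16 alternatives, with an adjusted p of 0.00994 to 0.308. Sqor, which oxidises hydrogen sulfide, was at -0.24 ± 0.07 (0.119).

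Partners of cytochrome c in apoptosis and regulators of respiratory genes held no called gene, and their difference from the members was not tested. The 12 genes of cytochrome c release and the apoptosome had a median of -0.07 with 0 called, 8 negative and an unadjusted p under 0.05 for 1. The scaffold gene Apaf1, which binds released cytochrome c, was at 63.6 CPM in cKO and 63.3 CPM in control cells (0.01 ± 0.07, adjusted p = 0.973), and Mcl1 and Bax were at -0.15 ± 0.07 and -0.18 ± 0.09 (0.29 and 0.325). The 9 measured regulators had a median of -0.02 with 0 called and an unadjusted p under 0.05 for 1. Nrf1 was at -0.02 ± 0.08 and Gabpa at 0.07 ± 0.09, Yy1 at -0.08 ± 0.06 (0.539), and Tfam, the packaging factor of mitochondrial DNA, at -0.25 ± 0.10 (0.244). Ppargc1b, the coactivator linked to mitochondrial biogenesis in osteoclasts, was at -0.13 ± 0.21 (0.819); Ppargc1a was too low to be tested. Apaf1, Nrf1, Gabpa, Ppargc1b, Uqcc2, Ttc19 and Lyrm7 were named after their values were seen.

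**Figure D5:**
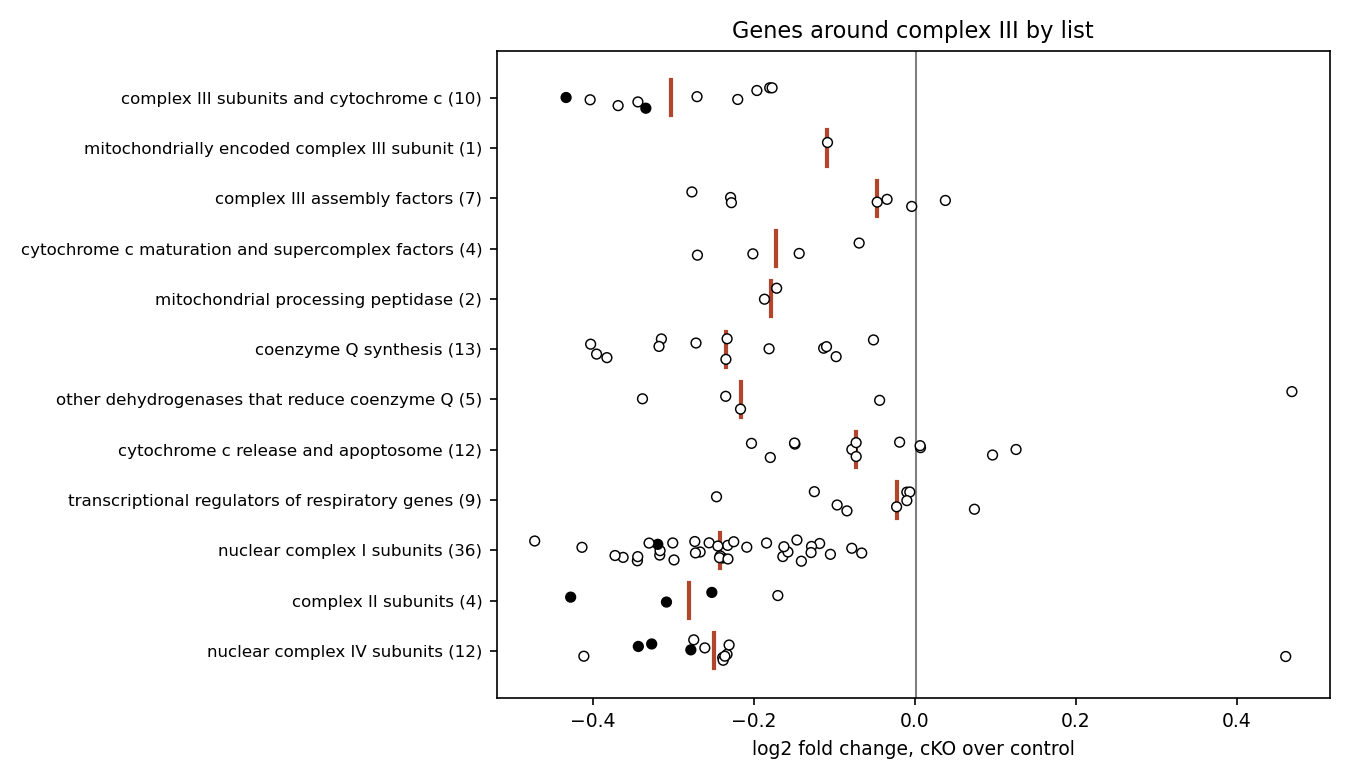
Log2 fold change of every tested gene by list, cKO over control, with the number of genes tested in brackets; filled points have an adjusted p below 0.05, red bars are list medians and the grey line is the median of all genes. The complex III genes with Cycs have a median of -0.30, the assembly factors -0.05 and the transcriptional regulators -0.02.

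The other nuclear respiratory complexes gave values of similar size. The median was -0.24 over 36 subunits of complex I, all 36 negative and 1 called lower. It was -0.28 over the 4 subunits of complex II, all 4 negative and 3 called lower. Over 12 nuclear subunits of complex IV it was -0.25, with 11 negative and 3 called lower. Every cKO library lay below every control library for 22, 3 and 11 of these genes, as for 11.4% of all genes tested. An unadjusted p under 0.05 in either direction (edgeR) was found for 23, 3 and 11. No test of the difference between complexes was made, so nothing here sets complex III apart. Ndufa10 of complex I was at -0.32 ± 0.07 and Sdhb, the iron-sulfur subunit of complex II, at -0.43 ± 0.07 (edgeR adjusted p = 0.0284 and 0.0129), with the Sdhb value equal to that of Uqcrfs1. Sdhc, a membrane anchor of complex II, was at -0.31 ± 0.07 (0.0326). Cox5a and Cox6a1 of complex IV were at -0.33 ± 0.07 and -0.28 ± 0.06 (0.0284 and 0.029), while 1 of the 12, Cox7a1, named after its value was seen, was positive at 0.46 and was not called. Cox5a and Cox6a1 were each called in 9 of 16 alternatives and lost, among others, with the length trend removed (0.065 and 0.135); without cKO replicate 1 they were at 0.177 and 0.174, without cKO replicate 2 at 0.0553 and 0.0584, and without control replicates 1, 2 and 3 at 0.109, 0.052 and 0.121 for Cox5a and 0.0882, 0.0725 and 0.12 for Cox6a1. Ndufa10, Sdhb and Sdhc were called in 11, 12 and 11 of 16 alternatives, and all were lost with FPKM in limma (0.0831, 0.0697 and 0.109), without cKO replicate 1 (0.181, 0.123 and 0.219) and without control replicates 1 (0.113, 0.0878 and 0.127) and 3 (0.12, 0.0767 and 0.142). Ndufa10 and Sdhc were also lost without cKO replicate 2 (0.0657 and 0.0533).

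Outside all lists, the genes with the pattern nearest to the mean of the 10 members were Got1, Smpd1, Tubb6, Rnf19b and Fxyd5. Likeness was the root mean square distance between centred log2 CPM over the 6 libraries, among 5322 genes with a mean of at least 5 log2 CPM, where the median distance was 0.177. The distance was 0.025 for Got1, the cytosolic aspartate aminotransferase, 0.026 for Smpd1, the acid sphingomyelinase, 0.032 for Tubb6, a beta-tubulin, 0.034 for Rnf19b and 0.036 for Fxyd5. The members themselves lay at 0.046 for Cyc1 to 0.099 for Uqcrc2, and 369 of the 5322 genes lay nearer than Uqcrc2. Got1 stood at 44.2, 45.8 and 50.4 CPM in cKO, against 58.4, 53.7 and 59.6 CPM in control libraries, the same ranking of libraries as the members' mean. Since a profile lower in every cKO library chose these genes, their difference between genotypes is a description.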

How the data were processed

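Polyadenylated RNA in 3 cKO and 3 control libraries was sequenced after 48 hours with RANKL. Per the labels' protocols, the kit marked strand with dUTP after poly(A) selection. Cutadapt 1.9 and the build mm10 come from the submitters' processing notes; an aligner, a counter, an annotation release and the strand setting of the counting are not stated there. The deposited counts are unnormalized reads per gene, and the authors' FPKM values stand beside them, per the file headers. No row lacked a gene name. Coordinates are those of the files on mm10; GENCODE M21 held 99.76% of the gene identifiers.

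Genotypes were compared with edgeR 4.0.16 (R 4.3.3): filterByExpr with a minimum count of 10 and minimum total of 15, TMM scaling, and a robust quasi-likelihood F test over all 16843 genes kept, with Benjamini-Hochberg adjustment and a threshold of 0.05. The test was checked on simulated counts, where it missed most differences slightly larger than those of the members. A member that was not called is therefore not shown to be unchanged. The SE is the size of the log2 fold change divided by the square root of F. Alternatives used DESeq2 1.42.0, limma 3.58.1 (voom with sample weights, and log2(FPKM + 0.1)), 2 other scalings, 2 other filters, a replicate block, removal of the trend over length by loess offsets, each library left out, and, chosen after seeing the data, near-identical copies added to their gene and principal transcript lengths. Fold changes from FPKM are on the log2(FPKM + 0.1) scale, which understates low genes. Copies were found with BLAST against GENCODE M21 transcripts. The labels do not say whether the replicate numbers pair the libraries. Deviations of same-numbered libraries correlated at -0.08, 0.05 and 0.26 across genes, and those of differently numbered ones at -0.22 to 0.15. With 3 libraries per genotype these values cannot decide whether the numbers are pairs.

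The members and gene lists were chosen with earlier results of these data known. Named genes are the 10 members, Slc11a2, Lyz2 and mt-Cytb, the called genes of each other list or else its 2 genes of smallest raw p (at most 2 for complexes I, II and IV), and the 5 genes nearest in pattern; others are said to be named after their values were seen. Marker lists of erythroid, B, T and NK, endothelial, dendritic and mast cells held 0 called genes, with sums of at most 1.69, 7.89, 60.4, 5.77, 4.96 and 0.119 CPM in any library. In the same order, only 2, 2, 1, 3, 2 and 0 of their genes were tested, so no mast cell marker could be called. Of the 6 T and NK markers, 2 were listed. Pairs of libraries of a genotype differed far beyond sampling noise (chi-square 16.2 to 36.2 per degree of freedom).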

Additional observations from a re-analysis of the deposited data

How the results depend on the processing

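All 10 members kept a negative log2 fold change under all 16 alternatives, and their median ranged from -0.364 to -0.232 with a library left out. The number of members called lower was 2 in the reported fit, 5 with DESeq2, and 0 with FPKM in limma or with the length trend removed; with a library left out it ranged from 0 to 3. The number called over all genes was 407 (178 lower), 800 with DESeq2, 704 with limma-voom, 133 with FPKM in limma and 673 (357 lower) with the replicate block; with a library left out it ranged from 59 (without cKO replicate 1) to 624 (without cKO replicate 3). Upper-quartile scaling called 396 genes, 131 of them lower, and removal of the length trend called 358, 126 of them lower. The replicate block called 3 members by adding Uqcrc2 (edgeR adjusted p = 0.00417). Whether its numbers pair the libraries is not stated, and 4 of the 6 libraries correlated best with another number than their own. The ratio of mt-Cytb to the nuclear subunits ranged from 0.107 to 0.221 with a library left out, that of Uqcrfs1 from -0.178 to -0.15 and that of Cycs from -0.088 to -0.003. The median of the assembly factors changed sign to 0.016 without control replicate 1 and was -0.168 without cKO replicate 2, and that of the regulators to 0.001 with upper-quartile scaling and 0.002 without control replicate 3, against -0.102 without cKO replicate 3; the cause was not tested. At these depths the members held 593 to 12504 reads per library, and the precision of counting is lowest for Uqcr11.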
